A study of Mus musculus with 149 samples.

Results

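Hepatocytes from the large-trap chip were compared between the first and the middle part of their order in the deposited table. The 43 compared cells (21 and 22) belong to 64 ranked cells, out of 80 cells of that chip and 149 single cells in all. They were chosen by 2 values of the deposited table: the spike-in share of a cell, which had to be under 50%, and the left-to-right column position, which gave ranks 1-21, called the first group, and ranks 22-43, called the middle group. Ranks 44-64, the last group, are given as levels beside them. At the spike-in limit, cells 75 and 53 lay inside with 40.8% and 41%, and cells 31 and 54 lay outside with 52.4% and 55.1%.

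All cells came from 1 wild-type male C57BL/6 mouse of 8 weeks, with no further treatment than the perfusion that released the cells. They are labelled as primary hepatocytes, purified by low-speed spins and caught in Fluidigm C1 traps of 17 to 25 µm, with ERCC spike-ins (synthetic RNAs) in the lysis mix. Each group is therefore 1 sample. No test between groups was possible and no p-value is given. Each ± is an SD over cells of this mouse. The column order may have been made from the same expression values, so differences along it describe the order and are not independent evidence of position in the liver.

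The liver lobule is supplied with blood at the portal tracts and drained at a central vein. Hepatocytes near the portal tract (periportal) are known for urea synthesis, gluconeogenesis and amino acid breakdown, and those around the central vein (pericentral) for glutamine synthesis and drug metabolism by cytochrome P450 enzymes. Wnt signals from the central vein are known to maintain the pericentral programme.

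The RefSeq promoter windows of 2 of the periportal markers are shown because their genes were higher in the first group and both hold CTTTGA, the core letters bound by the Wnt effector family TCF/LEF. Bases run 5′ to 3′ on the gene's strand, build GRCm38.p6, with CTTTGA on either strand in capitals (a second match of Hsd17b13 lies in the bases left out because they are inside the GENCODE gene).
Hal, chr10:93488518-93488767, plus strand: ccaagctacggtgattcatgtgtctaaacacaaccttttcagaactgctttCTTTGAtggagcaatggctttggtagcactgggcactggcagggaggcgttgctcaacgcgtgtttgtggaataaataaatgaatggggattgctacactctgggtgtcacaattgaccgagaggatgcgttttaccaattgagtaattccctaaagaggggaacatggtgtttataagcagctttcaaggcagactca
Hsd17b13, chr5:103977411-103977638, minus strand: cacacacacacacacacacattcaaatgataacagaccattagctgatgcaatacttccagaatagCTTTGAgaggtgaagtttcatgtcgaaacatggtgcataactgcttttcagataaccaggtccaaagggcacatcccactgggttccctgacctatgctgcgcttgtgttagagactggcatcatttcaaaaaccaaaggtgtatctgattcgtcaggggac
CTTTGA was found, on both strands of the 250 bases before the start, in 13.8% of 32851 promoters. It was in 5 of 19 matched promoters of the periportal lists and in 8 of 28 of the pericentral list, so it was on both sides of the lobule. GTTAAT was in 4 of 19 and 2 of 28 (6.43% of all promoters), CAAAGTCCA in 0 of 19 and 1 of 28 (0.384%), TTGCGCAA in 0 and 0 (0.164%) and TGACGTCA in 0 and 0 (1.55%). CTTTGA and CAAAGTCCA can overlap by shared letters. These matches are descriptions of the sequence only.

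The cells differed in spike-in share, and this touches the means of both compared groups. Of the 64 ranked cells, 7 had spike-ins of 28.6% to 41%, 1 of them in the first group (cell 24), 6 in the middle (cells 75, 53, 17, 71, 7 and 64) and 0 in the last. Their summed mouse values were 3052062 to 3903321, against 1409457 to 1837686 in the other 57. The main values are therefore also given over the 36 compared cells under 25% (20 first, 16 middle). Cells with 3 or more markers of another cell type at 10 or more numbered 4 in the first group and 5 in the middle. Of 18 listed endothelial markers, 17 were at 10 or more in cells 7 and 64, both in the middle group, with summed values of 68007 and 67896 and with the liver albumin gene Alb at 11317 and 14173. Cell 48 of the first group held 13 of them at a sum of 1961, and cells 46 and 78 of the middle held 11 and 5 at sums of 959 and 138. Bile duct markers summed to 29141 in cell 24, 129 in cell 22 and 149 in cell 47 of the first group, and to 41184 in cell 71 of the middle. The median sum per cell was 104 in the first group and 88.3 in the middle, so cells 22 and 47 lay near it. The highest first-group sum under 25% spike-ins, 1902, was in a cell that is not counted here. The part of these cells in the results was not tested beyond the values without them.

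**Figure D1:**
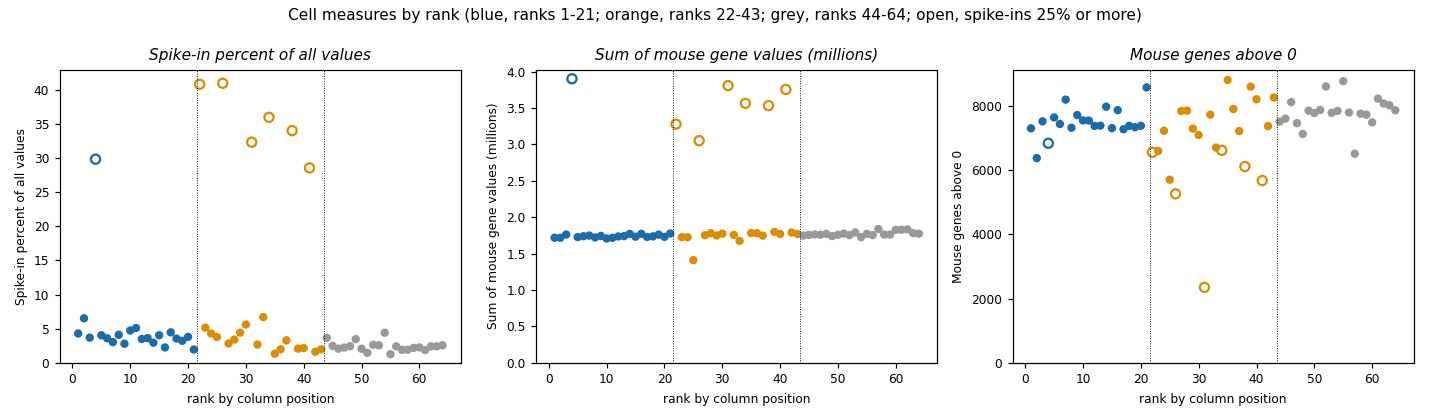
Spike-in percent, sum of mouse gene values and mouse genes above 0 for each of the 64 ranked cells, by rank; open points have spike-ins of 25% or more. Of the 7 open points 6 lie in the middle group, and their mouse sums are at least 3052062.

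The 4 markers that name the first group were above 0 in all of its cells and spread widely in the middle cells. Cyp2f2 encodes a cytochrome P450, Hal the first enzyme of histidine breakdown, Sds serine dehydratase, and Hsd17b13 a lipid droplet protein. The groups overlapped for each gene, and the step from the middle to the last group was larger, with a median log2 ratio of 5.27 over the 4 against 0.80. Since these genes named the groups, their values are a description.

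Cyp2f2 (chr7:27119909-27133660, GENCODE release 21 on mm10) had a lowest, median and highest value of 3271, 4959.6 and 7533 in the first group, 47.3, 4381 and 6941 in the middle and 0.35, 5.09 and 2556 in the last. The means were 5139 ± 1198 (n = 21) and 3623 ± 2189 (n = 22), a log2 ratio of 0.50 on the scale of means plus 1. In 67.7% of all pairs of 1 first and 1 middle cell, the first cell was higher. Under 25% spike-ins these were 0.28 and 60.9%. Of the 22 middle cells, 14 lay within the range of the first group.

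Hsd17b13 (chr5:103955440-103977410) had the highest share of pairs among the 4 over all cells. Its lowest, median and highest values were 931, 1471 and 2413 in the first group, 14.8, 893 and 1724 in the middle and 0.73, 7.06 and 233 in the last. The log2 ratio was 0.89, the first cell was higher in 85.3% of pairs, and 10 of 22 middle cells lay within the range of the first group. Under 25% spike-ins the log2 ratio was 0.62 and the share of pairs 79.7%, against 80.3% for Sds.

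Hal (chr10:93488768-93519304) ran from 270 through a median of 606 to 1997 in the first group, and from 2.34 through 343 to 1153 in the middle. Its log2 ratio was 0.72 (0.63 under 25% spike-ins), with 15 of 22 middle cells in the first range. Sds (chr5:120476526-120483932) ran from 31.6 through 209 to 1193 in the first group and from 0 through 92.9 to 617 in the middle. Its log2 ratio was 0.98, and 1.17 under 25% spike-ins. In the last group the medians of Hal and Sds were 0.82 and 0.

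The middle group varied from cell to cell. Of its 22 cells, 7 had none of the 4 markers below the first group's range, 6 had 1, 3 had 2, 1 had 3 and 5 had all 4. The cells at ranks 40 to 43 all had 4 below, and so had rank 31 (cell 17), with 32.3% spike-ins and 2350 genes above 0. Rank 41 is cell 64 (28.6% spike-ins), and rank 38, with 3 below, is cell 7 (34% spike-ins). Both of these held 17 endothelial markers at 10 or more, so their low values need not be those of hepatocytes. For Cyp2f2 the boundary at ranks 21 and 22 showed no clear step. It was 5583 and 3271 at ranks 20 and 21, then 3021 and 3633 at ranks 22 and 23. Rank 22 is cell 75, with 40.8% spike-ins, which limits its level. At the other boundary, Cyp2f2 was 47.3 and 104 at ranks 42 and 43, 2556 at rank 44 (cell 61) and 22.6 at rank 45.

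**Figure D2:**
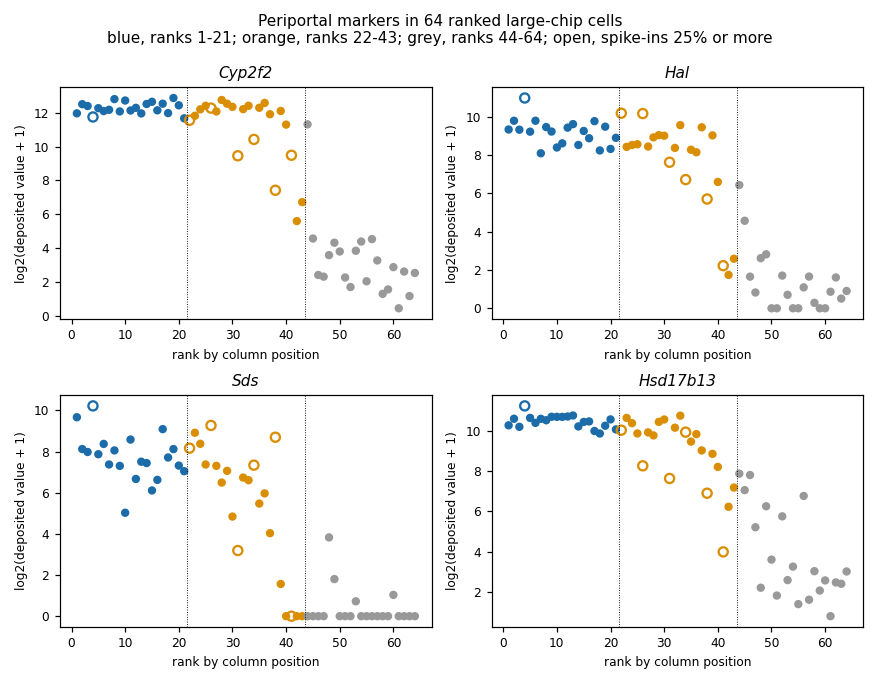
Deposited values of Cyp2f2, Hal, Sds and Hsd17b13, as log2(value + 1), against rank in the 64 ranked cells; blue is the first, orange the middle and grey the last group, and open points have spike-ins of 25% or more. Of the 22 middle cells, 14, 15, 14 and 10 lie within the first group's range for the 4 genes in this order, and the cells at ranks 40 to 43 lie below it for all 4.

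A gene was called higher in a group when its mean was at least 2-fold higher (log2 ratio of 1 or more), and separated when, in addition, its cells were higher in at least 75% of pairs. Of 9942 genes above 0 in 20% or more of the 64 cells, 1079 (10.9%) were called higher in the first group and 2221 (22.3%) in the middle. Separated genes numbered 29 (0.292%) and 12 (0.121%). Under 25% spike-ins the called genes were 1001 (10.1%) and 741 (7.45%), and the separated ones 43 (0.433%) and 27 (0.272%). Of the 2221 genes called higher in the middle, 1903 (85.7%) had their highest middle value in 1 of the 6 middle cells with 25% or more spike-ins, and 1349 (60.7%) took 50% or more of the middle sum from a single cell. Of the 1079 first-group genes, 488 (45.2%) took 50% or more of their sum from 1 cell. In 433 (40.1%) the highest first-group value was in cell 24, the only first-group cell with 25% or more spike-ins. The matching shares over all 9942 genes were not computed. The median log2 ratio of all genes moved from -0.20 to 0.062 under 25% spike-ins, so list medians are read beside it. Of the 4 markers, 0 were called (1, Sds, under 25%).

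Pericentral genes were higher in the middle group than in the first, at levels that were a small part of those in the last group. Of 29 listed pericentral genes that entered, 18 were called higher in the middle and 0 in the first, with a median log2 ratio of -1.74 against -0.20 for all genes. Under 25% spike-ins it was 19 and 0, with a median of -2.08 against 0.062. Over all genes, 22.3% were called higher in the middle and 10.9% in the first group (7.45% and 10.1% under 25%). From the middle to the last group 25 of 29 were called higher in the last and 0 in the middle, where over all 9942 genes 670 (6.74%) were called higher in the last and 3261 (32.8%) in the middle.

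Cyp2e1 (chr7:140763739-140774987), which oxidises ethanol and many solvents, had a lowest, median and highest value of 3.78, 15 and 421 in the first group. The middle cells ran from 7.49 through 80.3 to 8048 and the last from 2887 through 14984 to 29793. The log2 ratio was -4.37, and -5.74 under 25% spike-ins. The middle cell was higher in 83.8% of pairs, although 17 of 22 middle cells lay within the first group's range. The 421 belongs to cell 24, the first-group cell with 29.8% spike-ins. Without it the highest first-group value was 30.4, below the middle median of 80.3, so most of this overlap rests on cell 24. The highest middle value, 8048, belongs to the cell at rank 43.

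Cyp1a2, an enzyme of caffeine metabolism, had a highest value of 13.3 in the first group and medians of 0.54, 18.9 and 720 in the 3 groups. Its log2 ratio was -3.97 (-4.01 under 25%), and 13 of 22 middle cells lay above every first-group cell. Cyp3a11, a broad drug-metabolising P450, had medians of 1.07, 24.7 and 6244 and a log2 ratio of -5.07 (-5.73 under 25%). Both were above the first group's median in the middle without reaching the median of the last. Cyp2c29 had medians of 1.23, 4.97 and 5663 and a log2 ratio of -6.76 (-7.13 under 25%), and reads of the Cyp2c genes may be split between near-identical copies.

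Few middle cells lifted the middle means of Cyp2e1, Cyp3a11 and Cyp2c29, which were 738, 177 and 305 with highest values of 8048, 1249 and 4683. Several other pericentral genes also had means lifted by few middle cells. Cyp2c50 had a log2 ratio of -5.70 and medians of 0.79 and 4.76, Rgn (regucalcin) -3.52 with 1.96 and 45.3, and Cyp2c67, outside that list, -5.09 with 0.81 and 1.39. Glul, the glutamine synthetase of cells next to the central vein, had medians of 5.02, 9.6 and 69.2. Its log2 ratio was -2.89, and -0.98 under 25% spike-ins. Oat, ornithine aminotransferase, had a median of 0 in both the first and the middle group and 338 in the last, with a log2 ratio of -3.36 from a highest middle value of 148. Slc1a2, a glutamate transporter, did not exceed 1.59 in the first or 1.54 in the middle group and reached 2139 in the last. Gulo, the last enzyme of vitamin C synthesis, had medians of 0.74 and 0.725 and a log2 ratio of -1.07. Taking ranks 22 to 32 alone as the middle turned the ratio of Gulo to 2.50 and of Rgn to 0.18, so their middle signal lay in ranks 33 to 43. Under 25% spike-ins the log2 ratios were -5.77 for Cyp2c50, -3.90 for Rgn, -5.50 for Cyp2c67, -3.73 for Oat and -1.81 for Gulo.

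Cyp27a1, which oxidises sterol side chains, had medians of 51.2, 112 and 123 and a log2 ratio of -1.69 (-1.02 under 25%). Its mean was higher in the middle than in the last group (log2 ratio 0.45), with a highest middle value of 2189. The middle cell was higher than the last in 38.1% of pairs. With the middle cells under 25%, the middle mean was 115, against 137 in the last group. Slco1b2, an uptake transporter for organic anions outside the pericentral list, had medians of 773, 999 and 3879 and a log2 ratio of -0.81 (-0.83 under 25%). Mup15, a major urinary protein with near-identical copies, had medians of 0, 156 and 89807, and Mup17 49.9, 80.1 and 78729.

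**Figure D3:**
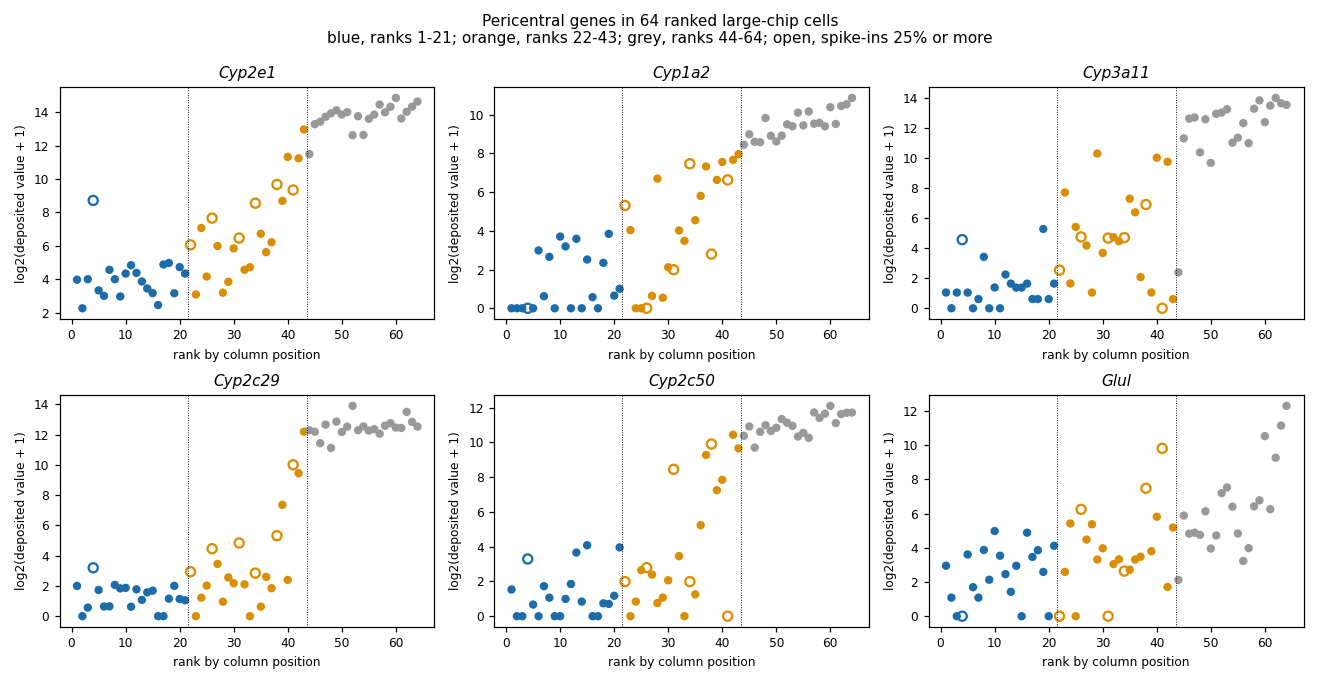
Deposited values of Cyp2e1, Cyp1a2, Cyp3a11, Cyp2c29, Cyp2c50 and Glul, as log2(value + 1), against rank; colours and open points as for the markers. Cyp2e1 medians are 15, 80.3 and 14984 in the first, middle and last group, and the highest middle values of Cyp2e1 and Cyp2c29 are at rank 43.

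Other periportal genes differed less between the first and middle group. Of 19 that entered, 2 were called higher in the first group (Ctsc and Etnppl) and 0 in the middle, a share near the 10.9% of all genes, with a median of 0.32 against -0.20. Under 25% spike-ins the 4 called were Cdh1, Aldh1b1, Apoa4 and Sult5a1, all also separated, where 10.1% of all genes were called, with a median of 0.46 against 0.062. These 4 are named after their values were seen.

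Ctsc, the lysosomal protease cathepsin C, had medians of 293, 90.3 and 0 in the 3 groups and a log2 ratio of 1.05 (0.90 under 25%). Its median was 185 in ranks 22 to 37 and 0 in ranks 38 to 43, and 22 of 22 middle cells lay within the first group's range. Etnppl, a phospholyase of phosphoethanolamine, had medians of 155, 85.3 and 0 and a log2 ratio of 1.07 (0.59 under 25%). Both were near 0 in most cells of the last group. Sult5a1, a sulphotransferase, had medians of 65.7 and 1.25, with a log2 ratio of 0.93 over all cells and 2.08 under 25%, where 1 middle cell at 741 was left out. Apoa4, an apolipoprotein, had medians of 178 and 27.2 and log2 ratios of 0.56 and 2.14. Cdh1, E-cadherin, had medians of 76.2 and 32.5 and log2 ratios of -0.03 and 1.40, and Aldh1b1, a mitochondrial aldehyde dehydrogenase, 10.6 and 0.32 with 0.80 and 3.68. For Cdh1 the sign thus depended on the middle cells with 25% or more spike-ins, the highest of which held 1181.

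The urea cycle and gluconeogenesis, textbook periportal functions, showed no 2-fold step as groups. Of 10 urea cycle genes 1 was called higher in the first group, with a median of 0.13 (0.24 under 25%). Among all genes, 10.9% were called higher in the first group and 22.3% in the middle (10.1% and 7.45% under 25%). Their median was -0.20 (0.062 under 25%), so these list counts are near or below those shares. Ass1, argininosuccinate synthase, had means of 1677 ± 689 and 1115 ± 680 and a log2 ratio of 0.59 (0.46 under 25%). Asl, which cleaves argininosuccinate, gave 0.35 (0.31), and Cps1, the entry enzyme of the cycle, gave -0.28 (-0.27) with medians of 1627 and 1850.3. Of 13 gluconeogenesis genes 0 were called in either direction, with a median of 0.14, and under 25% 1 was called higher in the middle, with a median of 0.28. G6pc, which releases free glucose, had medians of 1097 and 731 (log2 ratio 0.32, and 0.28 under 25%), and Mdh1, cytosolic malate dehydrogenase, 2121 and 1589.5 (0.55 and 0.34). Gls2, liver glutaminase, gave 0.19 and 0.56, and Hsd17b6, a steroid dehydrogenase, 0.85 and 0.65, and both had a median of 0 in the last group.

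The genes separated towards the first group were chosen for low values in the middle, so their step from the middle to the last group is a description that this choice affects. Of the 29, 14 were called higher in the last group than in the middle, 2 the reverse and 13 neither, and 23 had means under 100. With all 22 middle cells, 6.74% of all genes were called higher in the last group and 32.8% in the middle. Of the 43 separated under 25% spike-ins, 8 were called higher in the last group, 15 in the middle and 20 neither when all 22 middle cells entered that step. With the 16 middle cells under 25%, the counts were 17, 7 and 19 for the 43 genes and 13, 3 and 13 for the 29, where 836 (8.41%) of all genes were called higher in the last group and 1012 (10.2%) in the middle. Entpd5, a nucleotide hydrolase of the endoplasmic reticulum, had medians of 70.8, 27.7 and 154 and a log2 ratio of 1.79 (1.17 under 25%). Cyp4a12b, a fatty acid hydroxylase with near-identical copies, had 138, 26.6 and 227 and a log2 ratio of 1.49 (0.97 under 25%). Of the middle cells, 6 of 22 for Entpd5 and 10 of 22 for Cyp4a12b lay below every first-group cell.

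Ugt2b38, a glucuronosyltransferase with near-identical copies, decreased along the order, with medians of 867, 247 and 47.8 and a log2 ratio of 1.39 (1.44 under 25%). Slc25a17, a peroxisomal carrier, had medians of 168, 108 and 151 (log2 ratio 1.05), and Psmc4, a proteasome subunit, 168, 92.9 and 110 (1.19). Under 25% spike-ins their log2 ratios were 0.67 and 0.65, under the 2-fold rule.

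**Figure D4:**
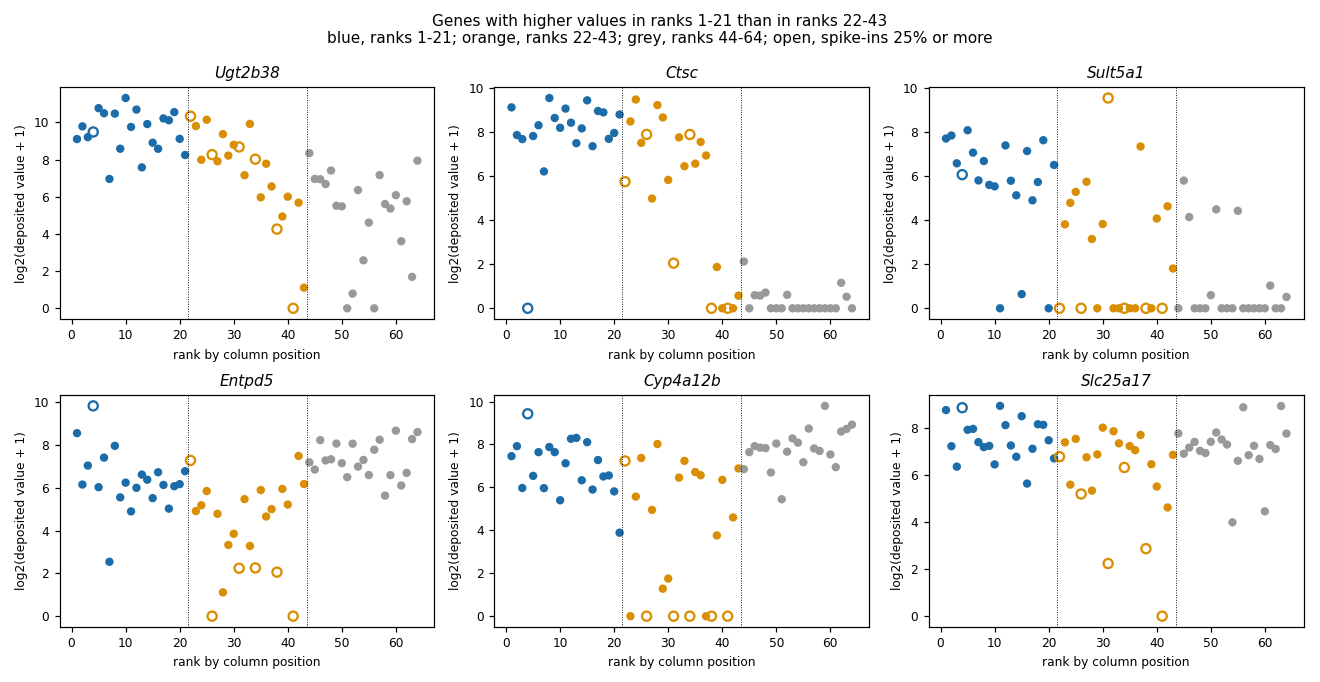
Deposited values of Ugt2b38, Ctsc, Sult5a1, Entpd5, Cyp4a12b and Slc25a17, as log2(value + 1), against rank; colours and open points as for the markers. Ctsc has medians of 293, 90.3 and 0 in the 3 groups, whereas Entpd5 has 70.8, 27.7 and 154.

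Genes known from the middle of the lobule leaned towards the middle group in their means, mostly by less than 2-fold. Of the 6 that entered, 0 had a log2 ratio above 0, with a median of -0.61 against -0.20 for all genes. Under 25% spike-ins 1 had a log2 ratio above 0, and the median was -0.47 against 0.062. Hamp, the iron hormone hepcidin, had medians of 249, 445 and 113 and a log2 ratio of -0.95 (-0.59 under 25%), with the middle cell higher in 55.6% of pairs. Hamp2 had medians of 6.83, 9.53 and 10.4, Igfbp2, a binding protein of insulin-like growth factors, 30.8, 22.1 and 8.44, and Cyp8b1, a bile acid enzyme, 184, 177 and 249. Of the 6 mid-lobule genes, 1 (Ccnd1, cyclin D1) was called higher in the middle, where 1 cell held 1232 and the median was 0.38. The share over all genes was 22.3%. Mup3 had medians of 67883, 66756 and 31156, so its first and middle medians lay close together. With most of these ratios under 2-fold and medians that went both ways, the name mid-lobule has little support. The group is called by its column position.

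Other hepatocyte functions differed little, and several of their differences rested on the cells with high spike-in shares. Ribosomal protein genes had 12 of 37 called higher in the middle and a median of -0.82, but 0 of 37 and -0.058 under 25%. The shares over all genes were 22.3% higher in the middle and 10.9% in the first group (7.45% and 10.1% under 25%). Rpl8 gave -2.00 and -0.14, and Rplp1 -1.54 and -0.25. In cholesterol synthesis 1 of 22 was called higher in the first group and 2 in the middle, and 0 in either under 25%. Ebp, a sterol isomerase, had log2 ratios of -0.91 and -0.26. Srebf1, a regulator of lipid synthesis, Dhcr7 and Tm7sf2, sterol reductases, changed sign under 25% spike-ins: from -1.13 to 0.30, from -1.49 to 0.11 and from 1.48 to -0.48. The stress-responsive factor Klf6 went from -1.02 to 0.36.

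Among secreted proteins, Apcs, serum amyloid P, had medians of 746 and 1218 (log2 ratio -0.78, and -0.90 under 25%). Lbp, which binds bacterial lipopolysaccharide, had 106 and 55.8 (0.91 and 0.86), and Lipc, hepatic lipase, 122 and 56.5 (0.93 and 0.77). These 3 kept their sign and were under 2-fold in both sets of cells. Apoc2 went from -0.56 to 0.64, Hpx (haemopexin) from -0.99 to 0.25, and the chaperone Calr from -0.44 to 0.43. Complement C3 gave -1.31 and -0.14, with a middle median of 1735 and a highest middle cell of 52776. The metallothioneins Mt1 and Mt2, which bind zinc and copper, gave -0.70 and -0.63, and -0.56 and -0.34 under 25%.

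In lipid and amino acid metabolism, Thrsp, a regulator of fat synthesis, had medians of 187, 105 and 154 (0.98, and 0.69 under 25%), and Slc25a20, the carnitine carrier of mitochondria, 48.1, 21.7 and 35.7 (1.06 and 0.68). Amdhd1, of histidine breakdown like Hal, had medians of 220, 148 and 13.9, and its log2 ratio went from -0.70 to 0.43 when a middle cell at 4991 was left out with the others. Of 35 amino acid genes 0 were called higher in the first group and 1 in the middle (1 and 0 under 25%). Both counts are below the shares of all genes, 10.9% and 22.3% (10.1% and 7.45% under 25%). Myc had medians of 15, 0 and 7.08 and log2 ratios of 1.71 and 1.34.

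**Figure D5:**
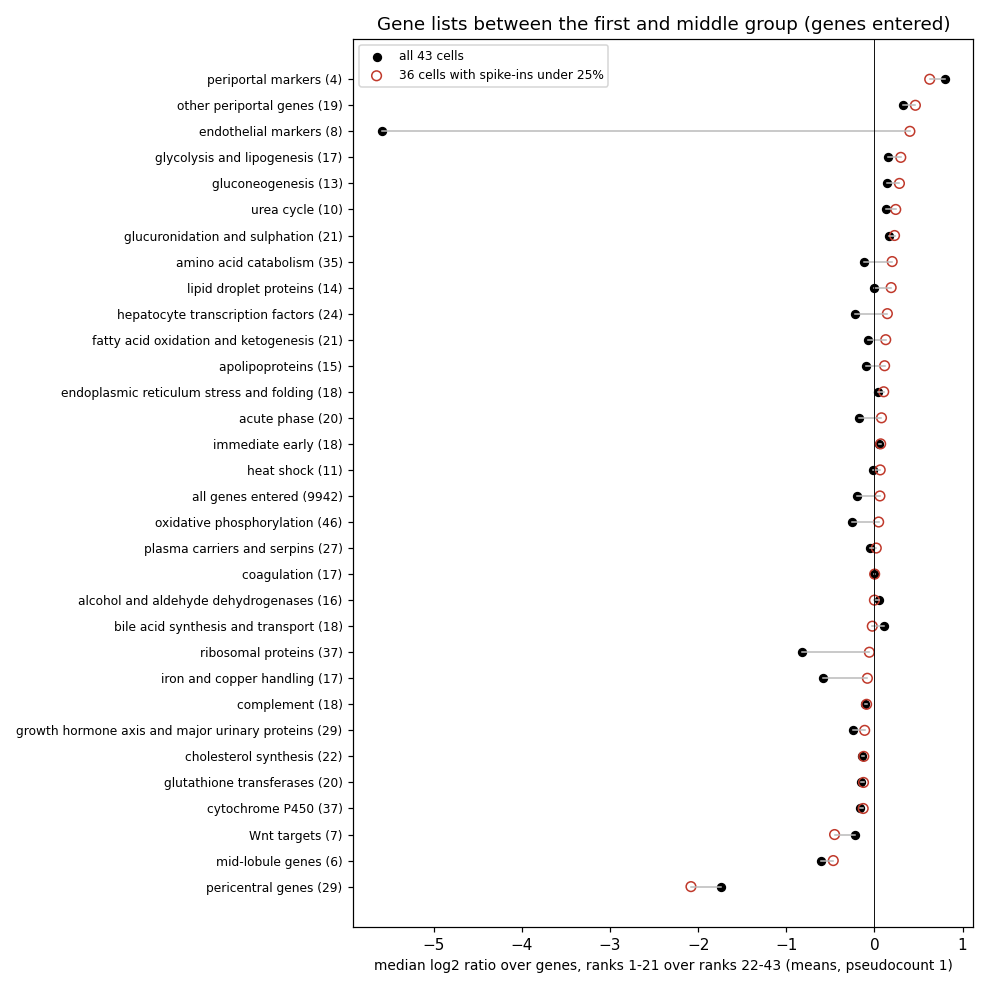
Median log2 ratio of the first over the middle group for each gene list (number of genes entered in brackets), over all 43 cells (filled) and over the 36 cells with spike-ins under 25% (open). The pericentral median is -1.74 and -2.08, while the endothelial one goes from -5.59 to 0.40.

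Endothelial genes were called higher in the middle group in 8 of 8 cases, with a median of -5.59, where 22.3% of all genes were. Under 25% spike-ins 1 of 8 was called higher in the middle and 2 of 8 in the first group, with a median of 0.40. The shares of all genes were then 7.45% and 10.1%. Clec4g and Mrc1, lectins of sinusoidal endothelium, had medians of 0 in both groups and highest middle values of 17748 and 11671. Of the bile duct genes, Spp1 had log2 ratios of -0.37 over all cells and 5.27 under 25%, and Sox9 0.53 and 0.05. The highest Spp1 values, 26143 in the first group and 40058 in the middle, were in cells left out under 25%. In the cells kept, all bile duct markers together summed to at most 1902 in the first group and 369 in the middle. Of the Kupffer cell markers 0 entered. These genes were at 0 or low in the median cell of both groups, apart from Sox9 with medians of 61.4 and 72.2.

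Cells of the smaller chips, under 50% spike-ins, were read in the column stretches of the groups, which together cover all 149 columns. The first stretch held 4 of them, with Cyp2f2 at 5031 to 7812 and Cyp2e1 at 3.35 to 20.8. The last stretch also held 4, with Cyp2f2 at 6.03 to 144 and Cyp2e1 at 5175 to 78633, the latter in a cell with 28.7% spike-ins. The middle stretch held 11, with Cyp2f2 from 5.82 to 8969 around a median of 6276. Most of these 11 had spike-ins of 20.1% to 49%, with mouse sums of up to 4076620, which limits their levels. In the middle stretch, 60 of its 93 columns were cells with 50% or more spike-ins, 14 of them from the large chip. These cells are of the same mouse and may have entered the same ordering, so they are no repeat.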

How the data were processed

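The authors deposited 1 table with 20400 rows (20308 mouse genes and 92 spike-ins) and 149 cell columns, all mapped by title. Its values are a normalised signal with 2 decimals, from expected counts: CASAVA 1.8.2, Bowtie 0.12.9, RSEM 1.2.3 and mm10, per the submitters' processing notes. The table's name mentions SCnorm (normalisation) and WaveCrest (cell ordering), which the labels do not describe. Read depth is unknown, so no counting error is given.

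Log2 ratios are of group means with a pseudocount of 1. Members, lists and tests were chosen with earlier results of these data known. Named by rule were the 4 markers, up to 12 separated genes per direction with a mean of 100 or more, and up to 4 genes per list with a mean of 50 or more. This gave 123 genes, of which 64 are described, selected after their values were seen; Rgn, Cdh1, Aldh1b1 and Alb fall outside this rule. All 36 lists were summarised; stellate, lymphocyte and erythroid markers had 1 gene each entered. Doublets were not called. Scripts ran under Python 3.11.15 with pandas 2.3.3, numpy 2.4.6 and matplotlib 3.10.9 and were tested on simulated data. Another 10 settings were tried, and 3 more, with the middle-to-last step under 25% spike-ins, were added after seeing the data. Positions are from GENCODE release 21, and promoters from RefSeq (GRCm38.p6), of which 22 bases within the GENCODE gene were left out for Hsd17b13.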

Additional observations from a re-analysis of the deposited data

How the results depend on the processing

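With 1 mouse, no spread between animals is known, and the depth of each cell is unknown. No paired analysis was possible because the compared cells share no replicate numbers: cell numbers only name cells. Genes called higher in ranks 1-21 (1079 of 9942) numbered 622 of 7575 with a gene filter of 50%. They numbered 353 with a pseudocount of 10 and 2060 with ranks 22-32 as the middle. Separated genes there (29) numbered 15 with a pseudocount of 10, 48 with mean log2 values, 53 without 3 cells on each side of the boundary, 75 without the cells with the fewest genes above 0 (lowest 25%), 60 without cells with other markers, 45 with a 25% spike-in limit and rescaling, 189 with ranks 22-32 and 98 with ranks 33-43. Genes called higher in ranks 22-43 (2221) numbered 1361 with a pseudocount of 10, 1424 after rescaling, 322 with mean log2 values, 1064 without cells of high mouse sum, 741 under 25%, 746 under 25% rescaled, 731 without the cells with fewest genes, 1195 without cells with other markers and 1117 with ranks 22-32. Separated genes there (12) numbered 7, 27 without cells of high mouse sum, 27 under 25%, 27 rescaled, 122 without the cells with fewest genes and 135 with ranks 33-43; the 7 is with a pseudocount of 10. The cause was not tested.

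Of the 123 genes chosen by rule, 49 were past 2-fold. Of these 49, the sign changed in 12 under 25% (also 12 with rescaling), 13 without the cells with fewest genes, 9 without cells of high mouse sum, 7 without cells with other markers, 4 with mean log2 values, 9 with ranks 22-32 and 0 under the other settings chosen at the start. Among the genes described, with ranks 22-32 the log2 ratio turned to 0.18 for Rgn, 2.50 for Gulo, 4.28 for Clec4g, 3.16 for Mrc1, 0.23 for Srebf1 and 0.54 for Klf6. Without cells of high mouse sum it turned to 0.53 for Clec4g, 0.090 for Mrc1, 0.23 for Srebf1, -0.49 for Tm7sf2 and 0.40 for Klf6. Under 25% it turned to 0.37 for Clec4g, 0.30 for Srebf1, -0.48 for Tm7sf2, 0.11 for Dhcr7 and 0.36 for Klf6, and with rescaling to 0.39, 0.30, -0.48, 0.081 and 0.35. Without the cells with fewest genes it turned to 0.14 for C3, 0.66 for Srebf1, -0.51 for Tm7sf2, 0.78 for Dhcr7 and 0.99 for Klf6. Without cells with other markers it turned to 0.97 for Clec4g, 0.37 for Srebf1, -0.55 for Tm7sf2 and 0.52 for Klf6. Of the genes called under both sets of cells, 567 were shared for the first group (52.5% of 1079 and 56.6% of 1001) and 525 for the middle (23.6% of 2221 and 70.9% of 741).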
